A study of Rattus norvegicus with 18 samples.

Results

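The AMPA and kainate receptor subunits are the pore-forming proteins of the glutamate-gated channels that carry fast excitation between neurons. They were followed here as every probe whose symbol, once an ending of _predicted or _mapped was removed and case ignored, was Gria1, Gria2, Gria3, Gria4, Grik1, Grik2, Grik3, Grik4 or Grik5. Of these 9 genes, 8 had a probe, among 21563 gene symbols on the array. They had 9 of the 22523 probes, since Grik5 had 2. No probe carried the symbol Gria1, and its mRNA was not analysed here.

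RNA came from primary cortical neurons of rat embryos that were exposed for 6 hours on day 1 of culture to a lentivirus carrying CHD5 shRNA or to a control lentivirus with a scramble shRNA. It was harvested on day 5, 9 or 12, with 3 replicates labelled a, b and c for each shRNA and day, which made 6 groups and 18 arrays. CHD5 is a chromatin remodeling ATPase of neurons, and the comparison of CHD5 shRNA with control asks which mRNAs depend on it while the neurons mature. Depletion rested on 1 shRNA construct, in cultures that also hold some glia, and Chd5 itself had no probe, so the depletion could not be read from these arrays. The labels do not say that the replicates were separate cultures, and the p-values measure only the spread between these samples.

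Each value is the mean bead signal of a probe, to which the authors applied no background subtraction. A probe counted as detected on an array when its signal exceeded that of the negative control beads with a detection p-value of at most 0.02, and 11079 probes detected on at least 1 array were tested. Levels below are log2 signals after each array had been brought to the same mean and SD, and can be compared for 1 probe between arrays but not between probes. The mean signal lay between 400.2 and 789.3 on 17 of the arrays. The day 9 control array of replicate b stood apart, with a mean signal of 134.8, 7047 detected probes against 8360 to 9931 on the others, and a highest correlation with another array of 0.955. Receptor values printed below that changed their call or moved by over 1.5 times without it are given both ways. In cultures that mix cell types, fewer cells of a type and less RNA per cell cannot be told apart.

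AMPA receptors are tetramers of the products of Gria1 to Gria4, and the edited Gria2 subunit keeps calcium out of the channel. Kainate receptors are tetramers of the products of Grik1 to Grik5. The subunits of Grik1, Grik2 and Grik3 form channels alone, and those of Grik4 and Grik5 bind kainate with high affinity but form channels only together with the others. Both families lie on postsynaptic and presynaptic membranes of cortical neurons, and their subunit makeup shifts as neurons mature.

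The probe decides which part of a transcript was read, and 5 genes had a probe that was detected and tested. The first 30 of the 50 bases of each of these 6 probes are given as the array file lists them, in lower case since no part of them was singled out.
Gria2: tagtaccttattctctgctgtgttaagtgg
Gria3: gcctgctcctgccaccaacactcagaatta
Grik1: cagaggactatgtctttatccataacccca
Grik2: gtttctgtcaggggtgtgaggtcaagcatg
Grik5 probe 1: ccaggcggacaggacgccgcgattttgcct
Grik5 probe 2: gtcccaccaggatccgtggcgagtgggggc
The Gria2 probe began at base 5576 of its transcript, and the file places it on the minus strand of chromosome 2 from 172266275 to 172266324. The Gria3 probe began at base 2639, on the minus strand of chromosome X from 3459734 to 3459783. The Grik1 probe began at base 3017, on the minus strand of chromosome 11 from 27704036 to 27704085. The Grik2 probe began at base 4215 of a transcript of chromosome 20, with no position in the file. The 2 Grik5 probes read opposite ends of the mRNA. Probe 1 began at base 3007, on the minus strand of chromosome 1 from 80314215 to 80314264. Its transcript record was absent from the RefSeq list used here, where that of probe 2 was present, though both probes carry the same gene ID. Probe 2 began at base 138 of another transcript record and spanned an exon junction, with its parts at 80380686 to 80380724 and 80384137 to 80384147. The genome build of these positions was not given in the sources used here, and exon and UTR annotation of the probes was not used.

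Detection separated the subunits. Gria2, Gria3 and Grik5 probe 1 were detected on all 18 arrays. Grik1 and Grik2 were detected on 17, missing only on the dim day 9 control array. Grik5 probe 2 was detected on 4 arrays, with signals of 77.5 to 115.8, so this probe gave little beyond background where probe 1 of the same gene was clear. Gria4, Grik3 and Grik4 were detected on no array. Their signals were 69.2 to 100.5 for Gria4, 65.7 to 91.2 for Grik3 and 79.4 to 102.6 for Grik4. The smallest detection p-value of both Gria4 and Grik4 was 0.0218, just outside the limit, and that of Grik3 was 0.0933. These 3 genes were not well above background in either culture on any day and were not tested. On the inner side of the limit, the largest detection p-value of Gria3 was 0.017, on the dim day 9 control array.

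**Figure D1:**
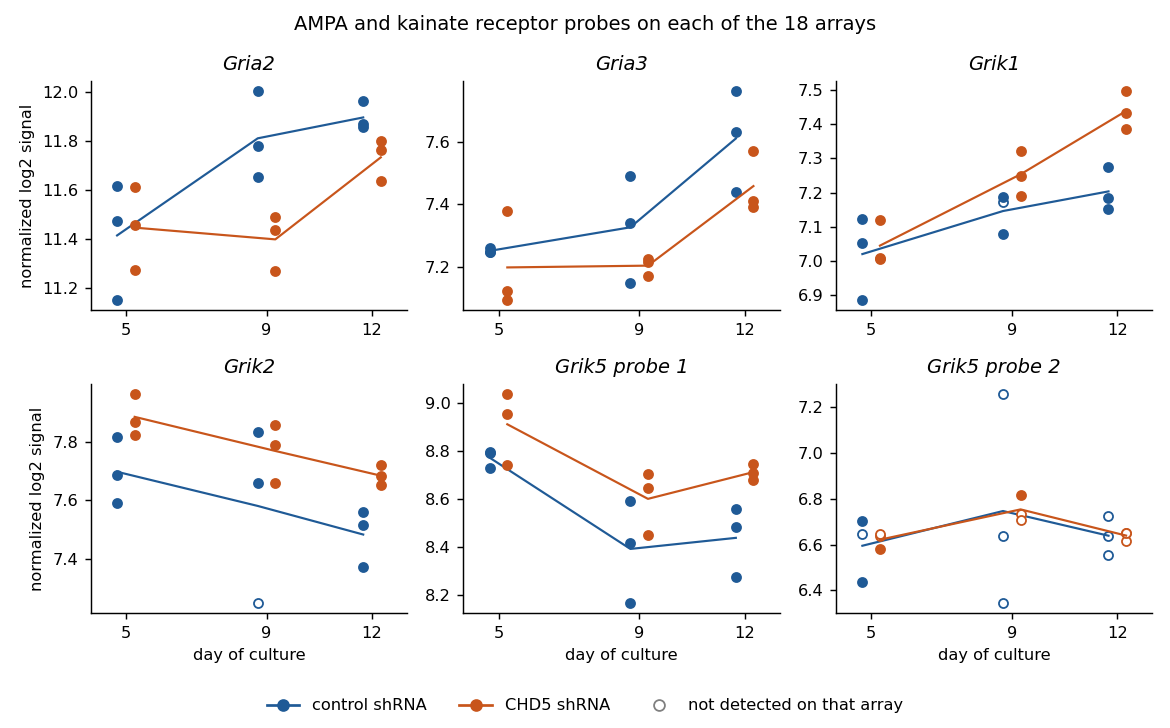
Normalized log2 signal of the 6 receptor probes (y axis, a separate scale for each probe) against day of culture (x axis, control and CHD5 shRNA set slightly apart), with 1 point per array, open where the probe was not detected, and lines through the means of 3 arrays. Gria2 and Gria3 were higher at day 12 than at day 5 in the control culture, Grik5 probe 1 was lower, and Grik1 climbed in the CHD5 shRNA culture to 7.39 to 7.49.

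In the control culture, 2 AMPA subunits rose and 1 kainate subunit fell between day 5 and day 12. Gria2 and Gria3 rose by 0.48 and 0.36 on the log2 scale, and Grik5 probe 1 fell by 0.33. These were 2 of 6 tested receptor probes called higher, beside 11.1% of all tested probes, and 1 of 6 called lower, beside 12.5% of all (limma, Benjamini-Hochberg adjusted p under 0.05). The median change was 0.11 over the 6 receptor probes and -0.02 over all probes.

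Gria2, the subunit that makes AMPA receptors impermeable to calcium, had control levels of 11.62, 11.48 and 11.15 at day 5. At day 9 they were 12.00, 11.65 and 11.78, with 11.65 on the dim array. At day 12 they were 11.96, 11.87 and 11.86. Both later days lay wholly above day 5, and day 9 and day 12 overlapped. For this and the later comparisons of days, the share of all probes that lay apart was not worked out. The rise from day 5 to day 9 was 0.40 ± 0.13 (SE) with an adjusted p of 0.0314 by limma, but turned to -0.14 under median centring without scaling of the spread. It lost its call there and under quantile normalization, neqc, array weights and a fit to only the arrays compared (adjusted p 0.0767 to 0.745). Without the dim array it was 0.48 with an adjusted p of 0.00923. It lost its call without replicate a or c of the day 9 control (0.30, adjusted p = 0.0705 and 0.41, adjusted p = 0.0509) or replicate b or c of the day 5 control (0.42, adjusted p = 0.0563 and 0.26, adjusted p = 0.122).

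From day 5 to day 12 the Gria2 rise was 0.48 ± 0.13, a ratio of 1.39 with a 95% confidence interval of 1.16 to 1.67 and an adjusted p of 0.00881 by limma. It was positive under all 27 alternatives and called when any array but the day 5 control of replicate c was left out (0.35 and adjusted p = 0.0502 without that array). The call was also lost under median centring (0.36, adjusted p = 0.566) and in a fit to only the arrays compared (adjusted p = 0.0578). Between day 9 and day 12 Gria2 differed by 0.08 ± 0.13 in the control culture, or by 0.0065 without the dim array.

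Gria3 codes for another AMPA subunit and stood close to background, with signals of 80.4 to 231.1. Its control levels were 7.25, 7.25 and 7.26 at day 5. They were 7.49, 7.34 and 7.15 at day 9, then 7.76, 7.44 and 7.63 at day 12. The day 12 values lay above all 3 of day 5 but overlapped day 9. The rise from day 5 to day 12 was 0.36 ± 0.11, a ratio of 1.28 (95% confidence interval 0.13 to 0.59 on the log2 scale), with an adjusted p of 0.022 by limma. It lost its call without replicate a or b of the day 5 control (adjusted p = 0.0515 and 0.0597) or replicate a or c of the day 12 control (adjusted p = 0.118 and 0.0676), without a detection filter (adjusted p = 0.102) and in a fit to only the arrays compared (adjusted p = 0.104), and was positive under all 27 alternatives. The change from day 5 to day 9 was 0.08 ± 0.11 and that from day 9 to day 12 was 0.28 ± 0.11, neither of them called. The latter was called only without replicate a of the day 9 control (0.36, adjusted p = 0.0352) and under 2 other normalizations.

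Grik5 codes for a high-affinity kainate subunit that needs a partner. Its probe 1 had control levels of 8.73, 8.79 and 8.80 at day 5. At day 9 they were 8.59, 8.17 and 8.42, the lowest on the dim array. At day 12 they were 8.27, 8.56 and 8.48. All 6 later values lay below all 3 of day 5. The fall was 0.38 ± 0.12 from day 5 to day 9 (difference -0.38, adjusted p = 0.0256 by limma), the one receptor probe called lower of 6 beside 12.8% of all probes, while Gria2 was the one called higher beside 9.18%. Without the dim array the difference was -0.27 with an adjusted p of 0.0802, and without replicate b or c of the day 5 control the adjusted p was 0.0711 and 0.0531. Quantile normalization gave -0.15 with an adjusted p of 0.283, and neqc gave -0.18 with an adjusted p of 0.306. The call was also lost under median centring, array weights and a fit to only the arrays compared (adjusted p 0.0613 to 0.264).

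From day 5 to day 12 the Grik5 probe 1 difference was -0.33 ± 0.12 in the control culture, a ratio of 0.793 (95% confidence interval 0.670 to 0.939), with an adjusted p of 0.0438 by limma. The call stood near the limit. It was lost on leaving out any of 12 arrays (adjusted p 0.0512 to 0.202) and kept on leaving out any of the other 6, with the difference between -0.39 and -0.25. The highest adjusted p came without replicate a of the day 12 control. Of the alternatives that kept all arrays, 6 lost the call too (adjusted p 0.0516 to 0.151). Grik5 probe 2 differed by 0.04 ± 0.15 over the same days, near background.

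Grik1 and Grik2, which both form kainate channels alone, were not called in the control culture. Grik1 had levels of 7.12, 6.89 and 7.05 at day 5 and 7.27, 7.18 and 7.15 at day 12, with no overlap and a difference of 0.18 ± 0.09 (adjusted p = 0.149 by limma). Grik2 had levels of 7.82, 7.59 and 7.69 at day 5 and 7.37, 7.52 and 7.56 at day 12. These Grik2 values did not overlap either, and differed by -0.21 ± 0.12 (adjusted p = 0.229 by limma). Without the dim array the Grik2 difference was -0.22 with an adjusted p of 0.0492, just inside the limit. Between day 9 and day 12 of the control culture, limma called 0 of 6 receptor probes, beside 4.16% of all. At an unadjusted p under 0.05 there was 1 of the 6 (Gria3), beside 2224 of all 11079 probes.

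In the CHD5 shRNA culture the called change was another one, a rise of Grik1. Limma called 1 of 6 receptor probes higher from day 5 to day 12, beside 8.46% of all, and 0 of 6 lower, beside 8.56%. Grik1, like Gria3, stood close to background, with signals of 74.8 to 184.6, or from 122.6 upward without the dim array. Grik1 levels under CHD5 shRNA were 7.12, 7.005 and 7.01 at day 5. They were 7.25, 7.32 and 7.19 at day 9, then 7.39, 7.43 and 7.49 at day 12. The 3 days did not overlap, each lying above the one before. The rise from day 5 to day 12 was 0.39 ± 0.09, a ratio of 1.31 (95% confidence interval 1.16 to 1.49), with an adjusted p of 0.00393 by limma. It was called under all 27 alternatives, with values of 0.36 to 0.61.

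The other detected subunits had the signs of the control culture under CHD5 shRNA from day 5 to day 12, and none passed the test. Gria2 differed by 0.29 ± 0.13 (adjusted p = 0.136) and Gria3 by 0.26 ± 0.11 (adjusted p = 0.118). Grik5 probe 1 differed by -0.20 ± 0.12 (adjusted p = 0.279) and Grik2 by -0.20 ± 0.12 (adjusted p = 0.303). The median over the 6 receptor probes was 0.14, and over all probes -0.01. From day 5 to day 9 limma called 0 of 6, beside 9.33% of all. At an unadjusted p under 0.05 there were 2 (Grik1 at 0.21 ± 0.09 and Grik5 probe 1 at -0.31 ± 0.12), beside 2666 of all 11079 probes. Without the dim control array, whose removal changes the shared spread, Grik5 probe 1 was called there at -0.32 with an adjusted p of 0.0213. From day 9 to day 12 limma called 0 of 6, beside 1.37% of all. There were 3 at an unadjusted p under 0.05, beside 1088 of all 11079 probes. The 3 receptor probes were Gria2 at 0.33 ± 0.13, Gria3 at 0.25 ± 0.11 and Grik1 at 0.18 ± 0.09, all with day 12 wholly above day 9. Grik5 probe 2, near background, had day 12 wholly below day 9 (-0.11 ± 0.15). No share of all probes apart between these days stands beside this.

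**Figure D2:**
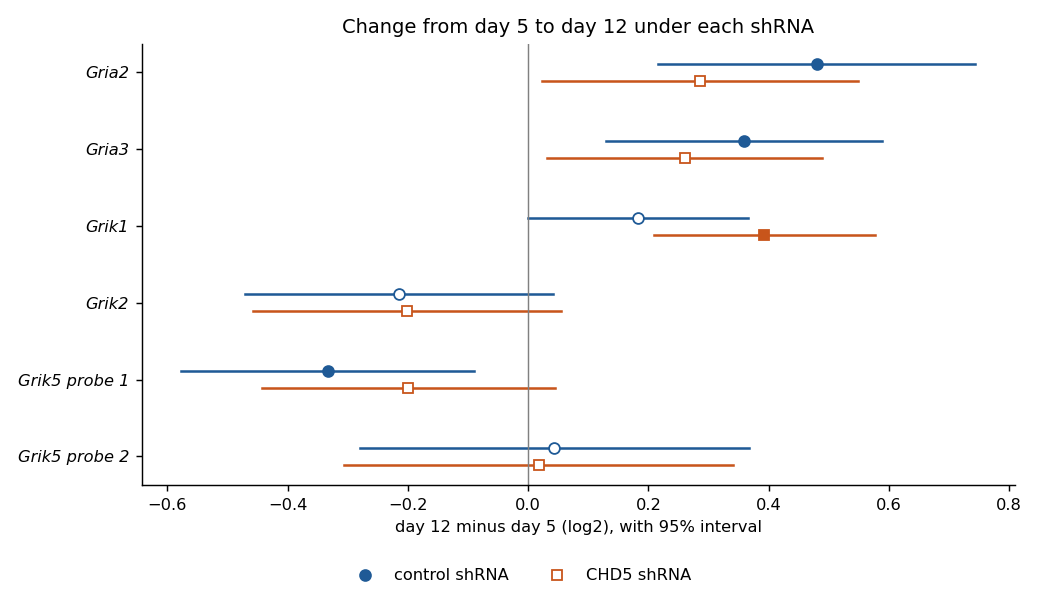
Change from day 5 to day 12 of each receptor probe (x axis, log2) in the control and CHD5 shRNA cultures, with 95% confidence intervals from limma and filled symbols where the adjusted p was under 0.05. The filled symbols are Gria2 at 0.48, Gria3 at 0.36 and Grik5 probe 1 at -0.33 for control and Grik1 at 0.39 for CHD5 shRNA, and the intervals of both cultures overlap for every probe.

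CHD5 depletion itself gave no called difference in any receptor probe on any day. Limma called 0 of 6 receptor probes at day 5, beside 0.171% of all tested probes. At day 9 it called 0 of 6, beside 5.89% of all. The count for day 12 was also 0 of 6, beside 5.47% of all. At an unadjusted p under 0.05 there were 0 receptor probes at day 5, Gria2 at day 9, and Grik1 and Grik5 probe 1 at day 12. Over all 11079 tested probes there were 627, 2239 and 1771 on these days. The 95% confidence intervals of the 6 probes and 3 days together ran from -0.67 to 0.52 on the log2 scale, so differences of these sizes remain possible. A p that misses the limit does not show that the cultures were alike.

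The mean levels of both tested AMPA subunits lay below control under CHD5 shRNA at days 9 and 12, and those of all 3 tested kainate genes above it, none of them called. Gria2 levels under CHD5 shRNA were 11.61, 11.46 and 11.27 at day 5. They were 11.44, 11.49 and 11.27 at day 9, all below the lowest control value of 11.65. At day 12 they were 11.76, 11.64 and 11.80, all below the lowest control value of 11.86. The Gria2 levels of the 2 cultures overlapped at day 5 and did not at days 9 and 12.

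The Gria2 difference was 0.03 ± 0.13 at day 5, -0.41 ± 0.13 at day 9 and -0.16 ± 0.13 at day 12 (adjusted p = 0.999, 0.0606 and 0.642 by limma). At day 9 this was a ratio of 0.752 with a 95% confidence interval of 0.627 to 0.903. It stood close to the limit and was negative under all 28 alternatives, with the call made under 7 of them. Without the dim array the difference was -0.50 with an adjusted p of 0.015, a call. Without replicate a or c of the day 5 control the adjusted p was 0.0491 and 0.0339. Over the alternatives that kept all arrays the adjusted p ran from 0.0304 to 0.906. Under median centring the difference was -0.12. The exact permutation test of 3 against 3 arrays gave p = 0.1, two-sided, the smallest it can give.

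**Figure D3:**
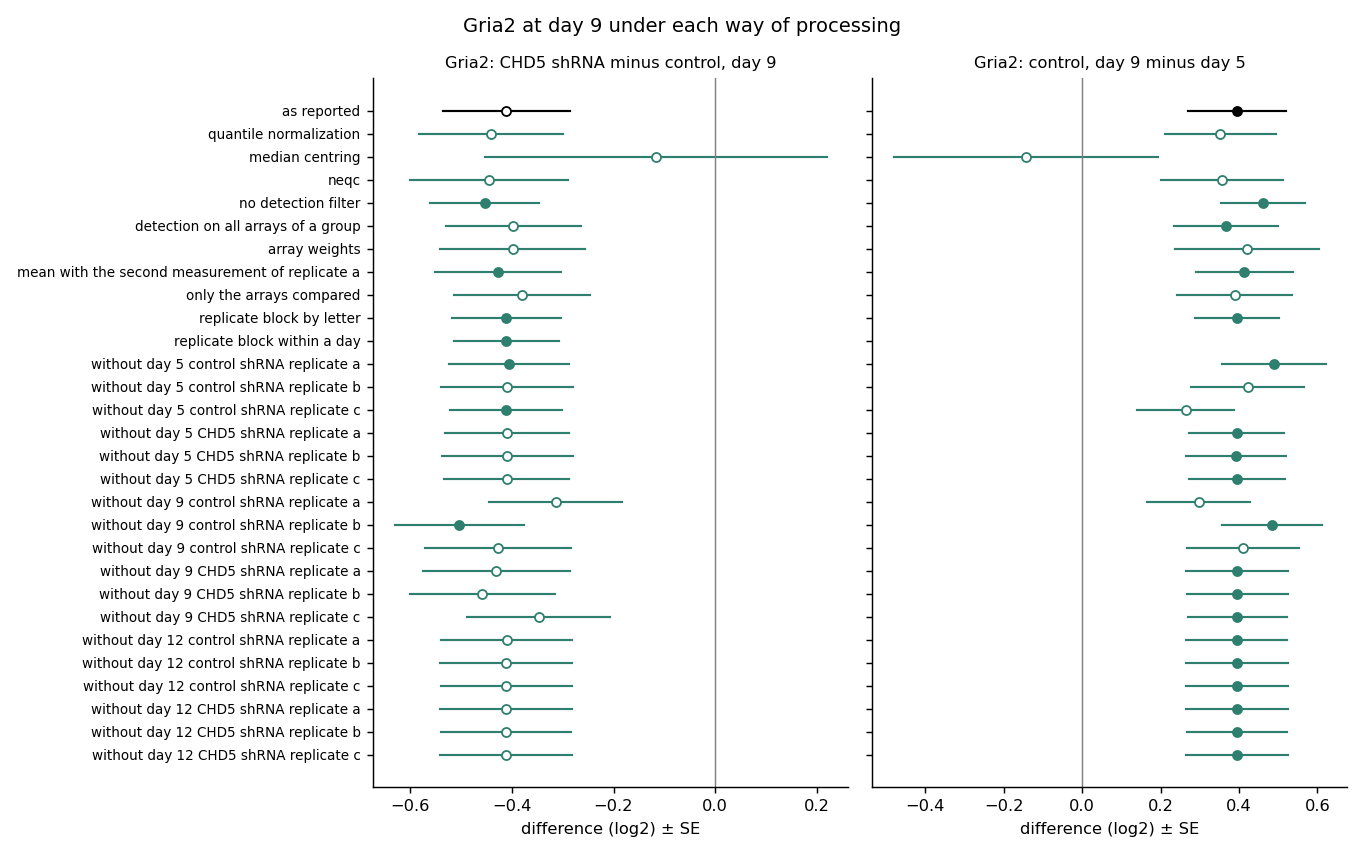
Gria2 under each way of processing the arrays, as the CHD5 shRNA minus control difference at day 9 (left, log2 ± SE) and the day 9 minus day 5 difference of the control culture (right), with filled points where the adjusted p was under 0.05. The left values ran from -0.50 to -0.12 and were all negative, and the right values from -0.14 under median centring, which turned the direction, to 0.49.

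Gria3 under CHD5 shRNA had levels of 7.09, 7.38 and 7.12 at day 5. They were 7.22, 7.22 and 7.17 at day 9, then 7.57, 7.39 and 7.41 at day 12. These overlapped the control on each day. The difference was -0.05 ± 0.11, -0.12 ± 0.11 and -0.15 ± 0.11 at days 5, 9 and 12 (adjusted p = 0.999, 0.552 and 0.594 by limma). The sign at day 9 turned to 0.02 with array weights.

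Among kainate subunits, Grik1 differed by 0.02 ± 0.09, 0.11 ± 0.09 and 0.23 ± 0.09 at days 5, 9 and 12 (adjusted p = 0.999, 0.513 and 0.157 by limma). At day 12 all 3 CHD5 shRNA values, from 7.39 upward, lay above the highest control value of 7.27. The ratio was 1.18 with a 95% confidence interval of 1.04 to 1.34. It was positive under all 28 alternatives, and called under 2 of them, with array weights (adjusted p = 0.000307) and when only the day 12 arrays were fitted (adjusted p = 0.0223). Without the dim array the adjusted p was 0.056.

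Grik5 probe 1 under CHD5 shRNA had levels of 8.74, 8.96 and 9.04 at day 5. They were 8.70, 8.45 and 8.65 at day 9, then 8.75, 8.71 and 8.68 at day 12. Only at day 12 did they lie wholly above the control, whose highest value was 8.56. The difference was 0.14 ± 0.12, 0.21 ± 0.12 and 0.27 ± 0.12 at days 5, 9 and 12 (adjusted p = 0.999, 0.324 and 0.229 by limma). When the dim array was left out the day 9 difference was 0.10 with an adjusted p of 0.57, and quantile normalization and neqc gave 0.079 and 0.095. The day 12 difference was called with array weights (adjusted p = 0.0054) and in a fit to only the day 12 arrays (adjusted p = 0.0175). Probe 2 of the same gene differed by 0.00 ± 0.15 at day 12, near background. The highest level of probe 2, 7.26, came from the dim day 9 control array, where it was not detected.

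Grik2 under CHD5 shRNA had levels of 7.87, 7.96 and 7.82 at day 5. They were 7.86, 7.66 and 7.79 at day 9, then 7.72, 7.65 and 7.68 at day 12. The cultures did not overlap at days 5 and 12 and overlapped at day 9. The difference was 0.19 ± 0.12, 0.19 ± 0.12 and 0.20 ± 0.12 (adjusted p = 0.999, 0.405 and 0.487 by limma). The day 9 difference was 0.025 when the dim array was left out, with an adjusted p of 0.885. The differences were positive under all 28 alternatives, and that at day 12 was called with array weights (adjusted p = 0.0213).

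Counted by overlap, the cultures were apart for 1 of 6 receptor probes at day 5 (Grik2 higher), beside 11.0% of all probes. On day 9 it was 2 of 6 (Gria2 lower, Grik1 higher), beside 20.6% of all, with the dim array included. Once that array was set aside, Grik5 probe 2, near background, was apart too (higher), but the share of all probes was not worked out for that case. Its day 9 difference was 0.01 ± 0.15 with all arrays (adjusted p = 0.984 by limma). Without the dim array it was 0.27 (adjusted p = 0.0889 by limma). On day 12 the count was 4 of 6 (Gria2 lower and Grik1, Grik2 and Grik5 probe 1 higher), beside 38.2% of all. The median difference of the 6 probes was 0.03, 0.06 and 0.10 at days 5, 9 and 12, and over all probes 0.01, -0.02 and 0.01.

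**Figure D4:**
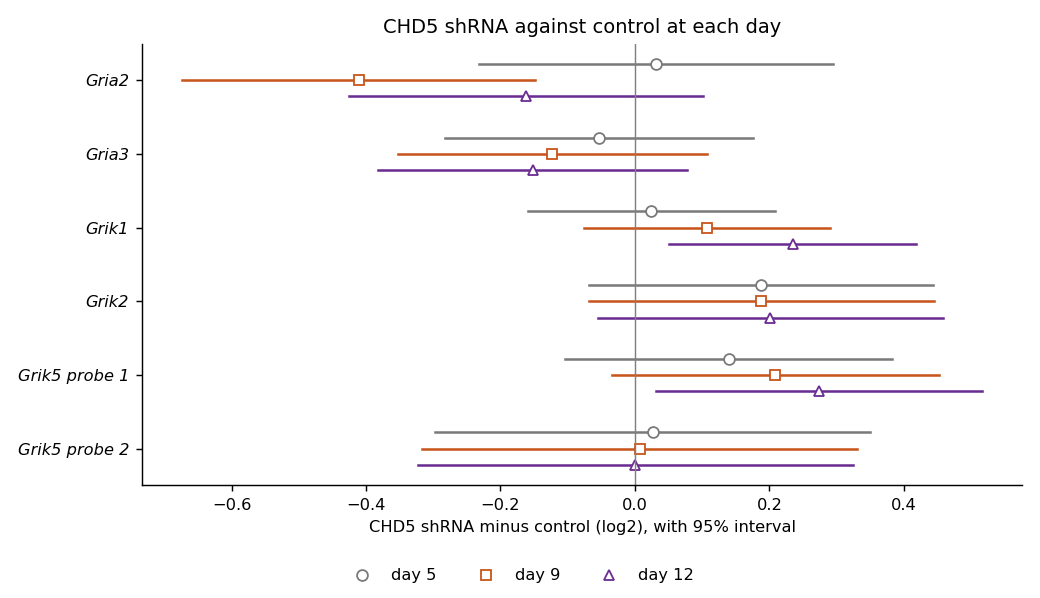
CHD5 shRNA minus control of each receptor probe (x axis, log2) at days 5, 9 and 12, with 95% confidence intervals from limma. All symbols are open because no adjusted p was under 0.05, and Gria2 at day 9 (-0.41), Grik1 at day 12 (0.23) and Grik5 probe 1 at day 12 (0.27) are the intervals that leave out 0.

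Whether the CHD5 shRNA difference changed between days was tested directly. Limma called 0 of 6 receptor probes for day 9 against day 5 (0% of all probes), 0 of 6 for day 12 against day 9 (0% of all) and 0 of 6 for day 12 against day 5 (0.153% of all). Gria2 was the one receptor probe with an unadjusted p under 0.05, with a change of -0.44 ± 0.18 between day 5 and day 9 (adjusted p = 0.586), or -0.54 (adjusted p = 0.15) without the dim array. Over all 11079 probes, an unadjusted p under 0.05 was found for 809, 262 and 748 in these 3 comparisons, in the same order. For Grik1, called from day 5 to day 12 under CHD5 shRNA and not in control, the changes in the 2 cultures differed by 0.21 ± 0.12 (adjusted p = 0.905 by limma). The Grik1 rise is therefore not shown to differ between the cultures.

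Ordered by mean level, Gria2 ran from control at day 12 (11.90 ± 0.06, SD, n = 3) and day 9 (11.81 ± 0.18) over CHD5 shRNA at day 12 (11.73 ± 0.09) to CHD5 shRNA at day 5 (11.45 ± 0.17), control at day 5 (11.42 ± 0.24) and CHD5 shRNA at day 9 (11.40 ± 0.12). The one gap between neighbours in this order was of 0.29, below CHD5 shRNA at day 12. Grik1 had its one gap at the top, where CHD5 shRNA at day 12 (7.44 ± 0.05) stood 0.18 above CHD5 shRNA at day 9 (7.25 ± 0.07). Grik2 and Grik5 probe 1 had their highest means under CHD5 shRNA at day 5 (7.89 ± 0.07 and 8.91 ± 0.15), and every pair of neighbours overlapped. Gria3 was highest in control at day 12 (7.61 ± 0.16), and its neighbours overlapped except control at day 5 over CHD5 shRNA at day 9, which lay 0.05 apart.

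A second measurement exists for each of the 6 replicate a arrays, marked in the headers only as a repeat. The headers do not say which steps were repeated. The second value differed from the first by at most 0.10 for Gria2, 0.20 for Gria3, 0.18 for Grik1, 0.17 for Grik2 and 0.22 for Grik5 probe 1 on the log2 scale. The Grik5 probe 1 values were all higher in the second measurement, by 0.05 to 0.22. The median size of these 6 differences was 0.052 for Gria2, 0.074 for Gria3, 0.072 for Grik1, 0.042 for Grik2 and 0.093 for Grik5 probe 1. They come from 1 replicate of each group, and no difference between the cultures was set against them.

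Over the 18 arrays the receptor probes fell into like and unlike pairs, as a description of arrays that share days and lentivirus. Gria2 and Gria3 correlated with r = 0.69, and Grik2 and Grik5 probe 1 with r = 0.78. Gria2 and Grik5 probe 1 correlated with r = -0.55. Grik5 probe 2, near background, correlated with Grik2 with r = -0.61 and with probe 1 of its gene with r = -0.47. The dim array, which held the lowest levels of Grik2 (7.25) and Grik5 probe 1 (8.17), is part of all these correlations. They were not worked out without it. Among 6436 probes of other genes detected on all arrays, those most like Gria2 were Echdc1 (r = 0.95), Lrrn1 and Tstd3 (both r = 0.90). Those most like Gria3 were Hist1h2ao, Mat2al1 and Psap (r = 0.84 to 0.86). For Grik1 they were Deaf1, Cib2 and Rassf5 (r = 0.87 to 0.90), for Grik2 Camk1g, Usp48 and Rfx1 (all r = 0.92), and for Grik5 probe 1 LOC499178, Gsr and Chmp7 (all r = 0.94).

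Genes of the proteins that accompany these receptors were read from the same arrays. Of 16 auxiliary subunits, 12 had a probe and 8 were tested, and 0 were called at day 9 or day 12. Their median difference was 0.02 and -0.02. Cacng3, a transmembrane protein that escorts AMPA receptors to the synapse, rose from day 5 to day 12 by 0.73 in control (adjusted p = 2.38e-05) and by 0.49 under CHD5 shRNA (adjusted p = 0.0019), the one of the 8 called, beside 11.1% and 8.46% of all probes called higher. Cnih2, an export factor of AMPA receptors, was called higher at day 12 when the dim array was left out.

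Of 16 genes of AMPA receptor trafficking and clustering, 11 were tested. Nsf, the ATPase that binds the Gria2 subunit and recycles membrane fusion complexes, was higher under CHD5 shRNA at day 9 by 0.55 ± 0.15 (adjusted p = 0.035) and at day 12 by 0.57 ± 0.15 (adjusted p = 0.0265), the one called of 11 on both days, beside 5.89% and 5.47% of all probes. The day 9 call of Nsf was lost without the dim array, where Epb41l1 was called instead, and at day 12 Grip2 and Pick1 were then called higher beside Nsf. In control from day 5 to day 12, 3 of 11 fell, beside 12.5% of all probes. These were Pick1 (-0.72, adjusted p = 0.00202), Grip1 (-0.56, adjusted p = 0.00981) and Grip2 (-0.53, adjusted p = 0.000742). All 3 code for proteins that bind the tail of AMPA subunits. The median over the 11 was -0.03. Of the enzymes that edit receptor mRNA, 2 of 3 were tested and 0 were called in these comparisons, while Adar was called lower in control from day 5 to day 12 without the dim array.

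Among the other receptors, 1 of 5 tested NMDA subunits was called with CHD5 depletion at day 9, beside 5.89% of all probes. This was Grin1, the obligatory subunit, higher by 0.53 ± 0.12 (adjusted p = 0.0173), and called there without the dim array too. At day 12 it was called without that array and not with it. Grm7, a presynaptic metabotropic receptor, was higher at day 12 by 0.47 ± 0.10 (adjusted p = 0.00744), 1 of 4 tested, beside 5.47% of all probes. At day 9 Grm7 was called when the dim array was left out. Of 10 tested GABA-A subunits 2 were called at day 12, beside the same 5.47%. They were Gabrd, detected on 7 of 18 arrays, higher by 0.58 ± 0.10 (adjusted p = 0.00154) and Gabrg1 lower with a difference of -0.49 ± 0.13 (adjusted p = 0.0408).

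With days in the control culture, 1 of 5 NMDA subunits was called from day 5 to day 12 (Grin2c, 0.45, adjusted p = 0.0109), beside 11.1% of all probes called higher. The Grin2c probe was detected on 1 of 18 arrays. Grin1 and Grin2b were called lower over these days when the dim array was left out. Among the metabotropic receptors Grm2 was lower at -0.78 (adjusted p = 9.13e-05). Among the GABA-A subunits Gabrg1 was higher by 1.03 (adjusted p = 1.57e-05) and Gabra5 lower at -1.13 (adjusted p = 0.000171).

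Glial markers moved with the same comparisons. Of 8 astrocyte markers 6 were tested, and all 6 rose in control from day 5 to day 12, beside 11.1% of all probes, by a median of 2.34, led by Aldoc (3.73), S100b (3.64) and Aqp4 (2.97). Their summed level was 5299 to 6167 at day 5 and 26629 to 27760 at day 12 in control, and 14837 to 16001 at day 12 under CHD5 shRNA. At day 9 it was 11708 to 14409 under CHD5 shRNA and 15914 to 20544 in control without the dim array, or up to 87530 with it. Under CHD5 shRNA 4 of the 6 were lower at day 9 (median difference -1.02) and 4 at day 12 (median -0.68), beside 5.89% and 5.47% of all probes called in either direction. Of 10 oligodendrocyte lineage markers 9 were tested, and 8 rose in control from day 5 to day 12, beside the same 11.1% of all probes. Under CHD5 shRNA 2 of the 9 were called lower at day 9 and 2 at day 12, beside the same 5.89% and 5.47%. Cnp was among them on both days (-0.58 and -0.71). At day 9, 7 differences were negative and 2 positive, and at day 12 all 9 were negative. Without the dim array, 1 was called higher and 2 lower at day 9. The summed level of the oligodendrocyte lineage markers at day 12 was 15670 to 17725 in control and 12825 to 14076 under CHD5 shRNA. At day 9 it was 12937 to 14304 under CHD5 shRNA and 13088 to 15431 in control without the dim array, which overlap. Gjb6 and Mag were detected on no array.

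Neuronal markers were read beside them. Over all probes, 11.1% were called higher and 12.5% lower in control from day 5 to day 12. With CHD5 depletion, 5.89% of all were called in either direction at day 9 and 5.47% at day 12. Of 9 markers of all neurons, detected on all arrays, the median change in control from day 5 to day 12 was 0.01, with Syt1 called higher (0.26) and Map2 lower (-0.60), and Tubb3 was higher under CHD5 shRNA at days 9 and 12 (0.55 and 0.53). Their summed level at day 12 was 49081 to 49775 in control and 52089 to 55577 under CHD5 shRNA. Of 7 tested markers of excitatory neurons 5 fell and 2 rose in control from day 5 to day 12. Under CHD5 shRNA 2 of the 7 were called higher at day 9, Slc17a6 (0.58) among them, with 5 differences positive and 2 negative. At day 12, 1 was called higher, with 4 differences positive, 3 negative and a median of 0.09. Without the dim array, 2 were called higher and 1 lower at day 12. The summed level of the excitatory markers at day 12 was 5954 to 6471 in control and 7212 to 7468 under CHD5 shRNA. Of 10 tested interneuron markers Npy was lower under CHD5 shRNA on both days (-0.69 and -0.78) and Calb2 at day 12 (-0.62), and their summed level at day 12 was 13007 to 13288 in control and 11013 to 11334 under CHD5 shRNA.

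Of the remaining lists, 3 of 5 fibroblast markers were tested. Dcn was lower under CHD5 shRNA at days 9 and 12 (-0.55 and -0.69), with Col1a2 at day 9 (-0.98) and Lum at day 12 (-0.59). Over all probes, 5.89% and 5.47% were called in either direction on these days. The Lum probe was detected on 1 of 18 arrays. The summed fibroblast level at day 12 was 365.3 to 434.5 in control and 294.9 to 332.9 under CHD5 shRNA. Of the microglial markers 2 of 6 and of the endothelial and pericyte markers 1 of 6 were tested, and 0 were called in these comparisons, with Cx3cr1, Itgam, Ptprc, Cdh5 and Rgs5 detected on no array. The part of these cell types in the receptor values was not tested.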

How the data were processed

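RNA of 18 samples of cultured rat neurons was measured on Illumina rat arrays. The deposited signal intensity of a probe is its mean over beads, which the authors extracted with GenomeStudio 1.1.1 and, per the file headers, neither normalized nor background-subtracted, so fold changes of dim probes are understated. The deposited detection p-value compares the probe with negative control beads. Probes that reached a detection p-value of 0.02 or less on any array were kept. Log2 signals were Z-transformed per array, as in the study, then scaled back to the average SD (1.79) and average level (8.31) of all arrays.

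One model was fitted over the 6 groups with limma 3.58.1 (lmFit and eBayes, R 4.3.3) and adjusted by the Benjamini-Hochberg method over 11079 probes at 0.05 for each comparison. Errors are the SE of limma unless named SD. The procedure was run on simulated data with independent noise and no dim array. That run does not show how often differences of the sizes reported here would be called. Of listed genes, 1 probe per symbol with the highest mean signal was used, and symbols were updated by gene ID through RefSeq (17431 of 22523 probes matched). Named were all receptor probes, up to 3 called genes per list by size of the CHD5 shRNA difference at day 9 or 12 and up to 3 by the control change from day 5 to 12, and the 3 probes most correlated with each receptor probe detected on at least 9 arrays. Genes called only without the dim array were named after their values were seen. Results of some listed genes are not reported here. Members and lists were chosen with earlier results of these data known.

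Alternatives were quantile normalization, median centring, neqc (offset 16), a filter that asks for detection on each array of some group, no filter at all, array weights, the mean with the second measurement of replicate a, only the arrays compared, replicate blocks and leaving out each array. Deviations of CHD5 shRNA and control arrays of 1 letter correlated by 0.27, 0.17 and 0.38 at day 5. At day 9 it was 0.43, 0.15 and -0.20, and at day 12 0.05, 0.15 and 0.01. Control arrays of 1 letter correlated by 0.48, 0.27 and -0.25 between day 5 and day 9. No values for unlike letters stand beside these, so whether the letters pair samples on any day was not settled. The main fit held the group only and no replicate block on any day. Pairing by letter, at day 5 too, therefore entered only the alternatives with a replicate block.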

Additional observations from a re-analysis of the deposited data

How the results depend on the processing

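The 3 arrays per group and the nearness of most receptor probes to background limit these results. Of the receptor values called above, the Grik1 rise from day 5 to day 12 under CHD5 shRNA kept its call under each alternative tried, and the others did not. Genes of the other lists were tried only without the dim array. At day 9, CHD5 shRNA against control called 1 receptor probe (Gria2) without a detection filter, with the second measurement of replicate a, and with a replicate block by letter or within a day, and 0 to 1 when leaving out an array. At day 12 it called 3 with array weights, whose estimation stopped before it converged, and 2 with only the arrays compared. In control from day 5 to day 9, 0 were called under quantile normalization, median centring, neqc, array weights and only the arrays compared, and 0 to 2 when leaving out an array. Gria2 turned to -0.14 there under median centring. From day 9 to day 12, quantile normalization and neqc called 1, and leaving out an array 0 to 1. From day 5 to day 12, median centring and no detection filter called 1, only the arrays compared 0, and leaving out an array 1 to 4. Under CHD5 shRNA array weights called 2 from day 5 to day 9, 3 from day 9 to day 12 and 5 from day 5 to day 12, and only the arrays compared called 2, 1 and 3. Leaving out an array gave 0 to 1 from day 5 to day 9. The cause of these shifts was not tested. The replicate block changed no other count of receptor probes. The counts over all probes moved more, from 2 to 162 at day 5, 0 to 1481 at day 9 and 162 to 3575 at day 12 for CHD5 shRNA against control. They ran from 857 to 5079, 88 to 2239 and 1410 to 4252 in control for day 9 against 5, 12 against 9 and 12 against 5. Under CHD5 shRNA these were 368 to 4028, 42 to 2621 and 1005 to 4995. For the change of the CHD5 shRNA difference they were 0 to 69, 0 to 1 and 0 to 262.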
